A study of Mus musculus with 288 samples.

Results

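Cry1, Cry2 and Ciart encode repressors of the circadian clock, and they were followed here as 3 of the 35904 genes measured in 6 tissues of the mouse over 24 hours. They were taken by name, with no threshold on a measured value, though earlier results of these data were known. All 3 passed the filter on low values in each tissue. Male wild-type C57BL/6J mice of 8 weeks were kept in normoxia (room air, 21% O2) or exposed for 7 days to intermittent hypoxia (IH), in which O2 fell in cycles from 21% to 8% during the inactive phase. All mice of both groups were then moved to constant darkness in room air, and lung, liver, kidney, muscle, heart and cerebellum were taken on day 2 of darkness, every 3 hours from 1:30 to 22:30, from 3 mice per time point and treatment. This gives 24 libraries per tissue and treatment and 288 libraries in all, each of bulk tissue, so that fewer cells of a type and less RNA per cell cannot be told apart. The mice breathed room air during sampling, so every value describes a state after the exposure, and exposure to darkness was shared by both groups.

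In the mammalian clock, CLOCK and BMAL1 (the product of Arntl) bind E-boxes in DNA and switch on the Per and Cry genes, whose proteins return to the nucleus and repress CLOCK and BMAL1. CRY1 and CRY2 are related flavoproteins that carry most of this repression, and Cry1 RNA is known to peak later in the cycle than Per and Ciart RNA. CIART, also called CHRONO, is a separate repressor that binds BMAL1 and is itself under E-box control. The delay of Cry1 is often tied to further nuclear receptor elements in the gene, which bind REV-ERB proteins.

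The 3 genes lie on different chromosomes and all on the minus strand of GRCm38. By GENCODE, Cry1 (ENSMUSG00000020038) spans chr10:85131700-85185064, Cry2 (ENSMUSG00000068742) chr2:92403646-92434043 and Ciart (ENSMUSG00000038550) chr3:95878503-95882251, with 4, 4 and 6 annotated transcripts. An opposite-strand transcript overlaps Cry2 (D930015M05Rik) and Ciart (C920021L13Rik), while no annotated gene overlaps Cry1. The promoters are shown because the genes' times of peak RNA, given further on, are usually discussed in terms of their E-boxes. Each sequence covers bases 200 to 31 before the RefSeq start site (RefSeq, GRCm38.p6, minus strand, 5′ to 3′), and capitals mark the E-box CACGTG and the related element CACGTT, here read as AACGTG on the opposite strand.
Cry1, chr10:85185085-85185254: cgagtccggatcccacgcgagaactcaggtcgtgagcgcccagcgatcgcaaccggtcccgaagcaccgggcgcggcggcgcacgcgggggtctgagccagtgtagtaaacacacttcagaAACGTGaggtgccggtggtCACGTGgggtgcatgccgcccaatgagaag
Cry2, chr2:92434100-92434269: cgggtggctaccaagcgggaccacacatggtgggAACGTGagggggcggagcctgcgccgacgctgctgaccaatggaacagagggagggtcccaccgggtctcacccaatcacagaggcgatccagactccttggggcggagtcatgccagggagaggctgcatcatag
Ciart, chr3:95882259-95882428: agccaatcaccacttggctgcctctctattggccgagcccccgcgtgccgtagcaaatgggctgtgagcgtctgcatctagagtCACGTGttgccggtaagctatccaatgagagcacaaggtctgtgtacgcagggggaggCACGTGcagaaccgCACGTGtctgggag
Ciart held 3 copies of CACGTG, which start at bases -116, -58 and -44, and Cry1 held 1 at base -60. Cry2 held no CACGTG and, like Cry1, 1 copy of AACGTG. The E-box reads the same on both strands and was in 7.15% of the 32851 promoter windows of 300 bases in the RefSeq table, while 29 of them (0.0883%) held 3 or more copies. CACGTT or AACGTG was in 4.68% of the windows. The D-box (TTATGTAA, TTACATAA, TTACGTAA or TTATATAA), found in 1.59% of windows, and the nuclear receptor half-site AGGTCA on either strand, found in 16.3%, were in none of the 3 windows. These matches describe letters in a short window and not binding, and the elements outside it were not read.

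The deposited values were TPM, which sum to between 989211 and 999188 per library and carry no read counts, so the depth behind each value is unknown. The 18 tissue markers checked were each highest by their mean in their own tissue, but not every library was clean. Heart markers were also read in the cerebellum libraries, at a mean of 208 TPM for Myh6 and 139 TPM for Nppa, against 4517 and 2434 TPM in heart. Pcp2 fell to 124 TPM in the lowest cerebellum library against a mean of 1680 TPM, and Alb to 541 TPM in the lowest liver library against 26174 TPM. The cause was not tested. In the lung 22694 ± 737 genes were above 0 in normoxia and 25455 ± 1529 after IH, and in the heart 25124 ± 1719 and 21447 ± 689 (SD, n = 24 each). The library least like the others of its tissue had a median correlation across genes of 0.69 in liver (IH, 13:30, replicate 2), 0.761 in cerebellum (IH, 1:30, replicate 3), 0.823 in heart (normoxia, 7:30, replicate 3) and 0.873 to 0.955 in the other tissues. For single values that come from these libraries, the result without the library is given beside them, except in the order of tissues and the times of the fitted peaks.

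By the mean TPM in normoxia, Cry1 and Ciart were highest in cerebellum and Cry2 in lung, and all 3 were lowest in kidney. Cry1 RNA was at 19.4 ± 5.99 TPM in cerebellum, 13.49 ± 4.98 in lung, 8.74 ± 5.25 in liver, 7.46 ± 2.42 in muscle, 5.46 ± 3.27 in heart and 5.30 ± 3.42 in kidney (mean ± SD, n = 24). The heart and the kidney did not differ beyond the spread between libraries (p = 0.857), while every other pair of neighbours in this order did (p of at most 0.0391). Cry2 RNA was at 24.3 ± 5.91 TPM in lung, 19.0 ± 8.87 in cerebellum, 13.0 ± 2.80 in muscle, 8.34 ± 3.46 in liver, 6.48 ± 1.84 in heart and 5.84 ± 1.55 in kidney. Again only the last pair, heart and kidney, missed the threshold (p = 0.164). Ciart RNA was at 12.4 ± 5.74 TPM in cerebellum, 9.13 ± 4.59 in lung, 6.95 ± 7.59 in liver, 3.66 ± 2.29 in heart, 3.07 ± 2.45 in muscle and 2.69 ± 2.48 in kidney. The heart and the muscle (p = 0.075) and the muscle and the kidney (p = 0.308) did not differ beyond their spread. These are permutation tests of the mean TPM with tissue labels exchanged within time points (100000 resamples, 2-sided), unadjusted over 15 comparisons, of which 11 had a p of at most 0.05.

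That order depends on the measure. By the median TPM, muscle (7.74) stood above liver (7.61) and heart (4.61) was lowest for Cry1, heart (3.12) stood above liver (2.17) for Ciart, and 8 of 15 neighbouring pairs differed. TPM divides by the whole RNA of a tissue, and a few transcripts such as Alb in the liver take a large share of it. When libraries of all tissues were scaled by the median of ratios, Cry1 and Ciart stood highest in liver (scaled levels of 14.8 and 11.5), Cry2 was at 14.4 in lung, 14.1 in muscle, 13.8 in liver and 13.5 in cerebellum with no neighbouring pair of these 4 apart, and 6 of 15 neighbouring pairs differed. By the mean, the kidney was lowest for all 3 genes on both scales. For Cry1 in TPM this place is not secure. The heart mean of 5.46 TPM, close to 5.30 TPM in kidney, holds the 15.2 TPM of the least similar heart library (7:30, replicate 3). The order without that library was not computed.

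The balance of the cryptochromes also differed between tissues, and this ratio does not depend on how a library is scaled. In the lung Cry1 stayed below Cry2 in each of the 24 normoxia libraries, with a median ratio of Cry1 to Cry2 of 0.599 (0.252 to 0.943). In the muscle the median was 0.62, also with Cry1 below Cry2 in all 24 libraries. In the liver the ratio ran from 0.209 to 4.22 around a median of 1.16, and in the kidney from 0.165 to 1.93 around 0.988, so that the more abundant cryptochrome changed over the day. In the cerebellum it stayed between 0.668 and 1.60. After IH the median in the lung was 0.409 and again 0 of 24 libraries had more Cry1 than Cry2. In the cerebellum the libraries with more Cry1 than Cry2 were 13 of 24 in normoxia and 2 of 24 after IH. These ratios are descriptions and were not tested.

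**Figure D1:**
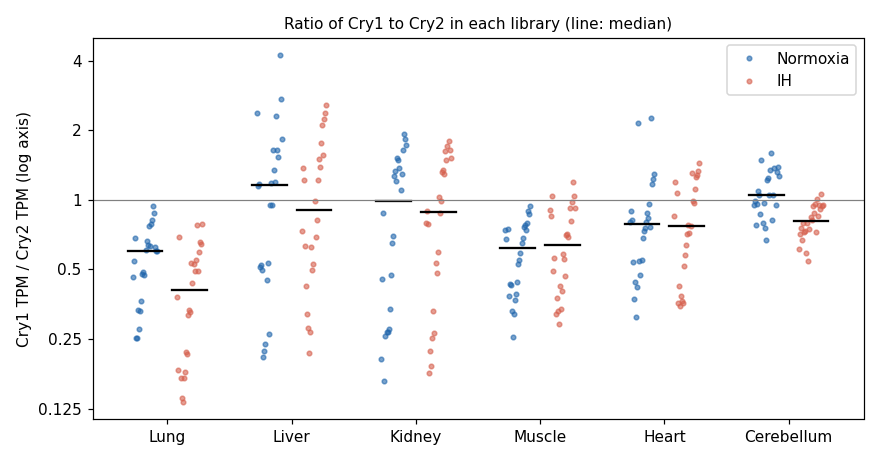
Ratio of Cry1 to Cry2 TPM (log axis) in each of the 24 libraries per tissue and treatment, with the median as a black line, normoxia in blue and IH in red. All lung points lie below 1 in both treatments, while the liver spans 0.209 to 4.22 in normoxia.

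The 3 genes cycled to very different degrees. Rhythm was tested at a period of 24 hours by a JTK rank test and a Lomb-Scargle test combined, with q of at most 0.05 over all genes tested and a cosine fit with p of at most 0.05. The combination treats the tests as independent though both use the same 24 libraries, so q can be too small and the shares below too high. In the normoxic cerebellum it called 348 genes, against 0 by the rank test alone and 0 by the cosine fit alone. In the normoxic lung these counts were 1299, 79 and 601. Ciart was rhythmic in 9 of its 12 sets of 24 libraries, Cry1 in 9 and Cry2 in 5. Among all genes tested, the share called rhythmic in normoxia and after IH was 6.46% and 8.38% in lung, 12.5% and 5.75% in liver, 12.5% and 2.25% in kidney, 1.96% and 4.93% in muscle, 0.596% and 2.42% in heart, and 1.63% and 0.0234% in cerebellum.

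Ciart had the deepest cycle in liver, kidney, muscle and heart by the fold from trough to peak, but not in the lung, where the normoxia fold was 2.71 for Ciart and 3.44 for Cry1. In the normoxic liver its 3 libraries at 1:30 read 0.349, 0.448 and 0.27 TPM and those at 10:30 read 13.4, 18.03 and 25.5 TPM, a 53.3-fold difference of the means. These time points were chosen as those of the lowest and the highest mean. The amplitude of the cosine was 1.33 ± 0.215 times its mean level in liver (± SE), against 0.961 ± 0.222 in kidney, 0.94 ± 0.151 in muscle, 0.722 ± 0.117 in heart and 0.473 ± 0.117 in lung. A relative amplitude above 1 means that a cosine describes the low part of the day poorly, since TPM cannot fall below 0. In the heart the normoxia means went from 1.30 TPM at 1:30 to 7.11 TPM at 10:30, and in the muscle from 1.11 TPM at 19:30 to 6.91 TPM at 7:30. Ciart was rhythmic in both treatments in the liver (q = 3.41e-05 and 0.00377), the kidney, the muscle and the heart. In the lung it was rhythmic in normoxia (q = 0.0219) and not after IH (q = 0.61). In the cerebellum q was 0.297 in normoxia and 0.761 after IH.

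Cry1 also cycled by several-fold, later in the day. In the normoxic kidney its means went from 1.29 TPM at 4:30 to 9.36 TPM at 16:30, and in the liver from 2.38 TPM at 7:30 to 14.9 TPM at 22:30. The relative amplitude was 0.822 ± 0.0875 in kidney, 0.793 ± 0.0622 in liver, 0.479 ± 0.0414 in lung and 0.381 ± 0.054 in muscle. Cry1 was rhythmic in both treatments in these 4 tissues. In the heart it was rhythmic after IH (q = 1.95e-04) and not in normoxia (q = 0.331), where the 7:30 libraries read 3.19, 2.31 and 15.2 TPM. The high value is the heart library least like the others, and without it Cry1 was rhythmic there too (q = 0.00157). In the cerebellum Cry1 did not pass in either treatment, and its normoxia means ran from 12.8 TPM at 4:30 to 26.3 TPM at 10:30.

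Cry2 was the flattest of the 3 in normoxia outside the cerebellum, where its 2.79-fold range was above those of Cry1 (2.05) and Ciart (2.14) and none passed the rhythm test. In the normoxic lung its means went from 18.1 TPM at 1:30 to 32.6 TPM at 10:30, a 1.80-fold range, and it was rhythmic there in both treatments (q = 0.0011 in normoxia and 0.0101 after IH). In the kidney, the muscle and the heart it was rhythmic after IH (q = 0.00683, 0.00368 and 0.00418) and not in normoxia (q = 0.687, 0.0731 and 0.961). Its relative amplitude in the heart was 0.196 ± 0.0752 in normoxia and 0.301 ± 0.0569 after IH, and the amplitudes differed by 1.18 TPM (95% interval -0.155 to 2.52). On the scaled TPM, Cry2 was also rhythmic in the normoxic muscle (q = 5.77e-04) and heart (q = 0.00338). In the liver and the cerebellum Cry2 passed in neither treatment. The rank test alone called 13 of the 36 sets of the 3 genes rhythmic, against 23 here.

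**Figure D2:**
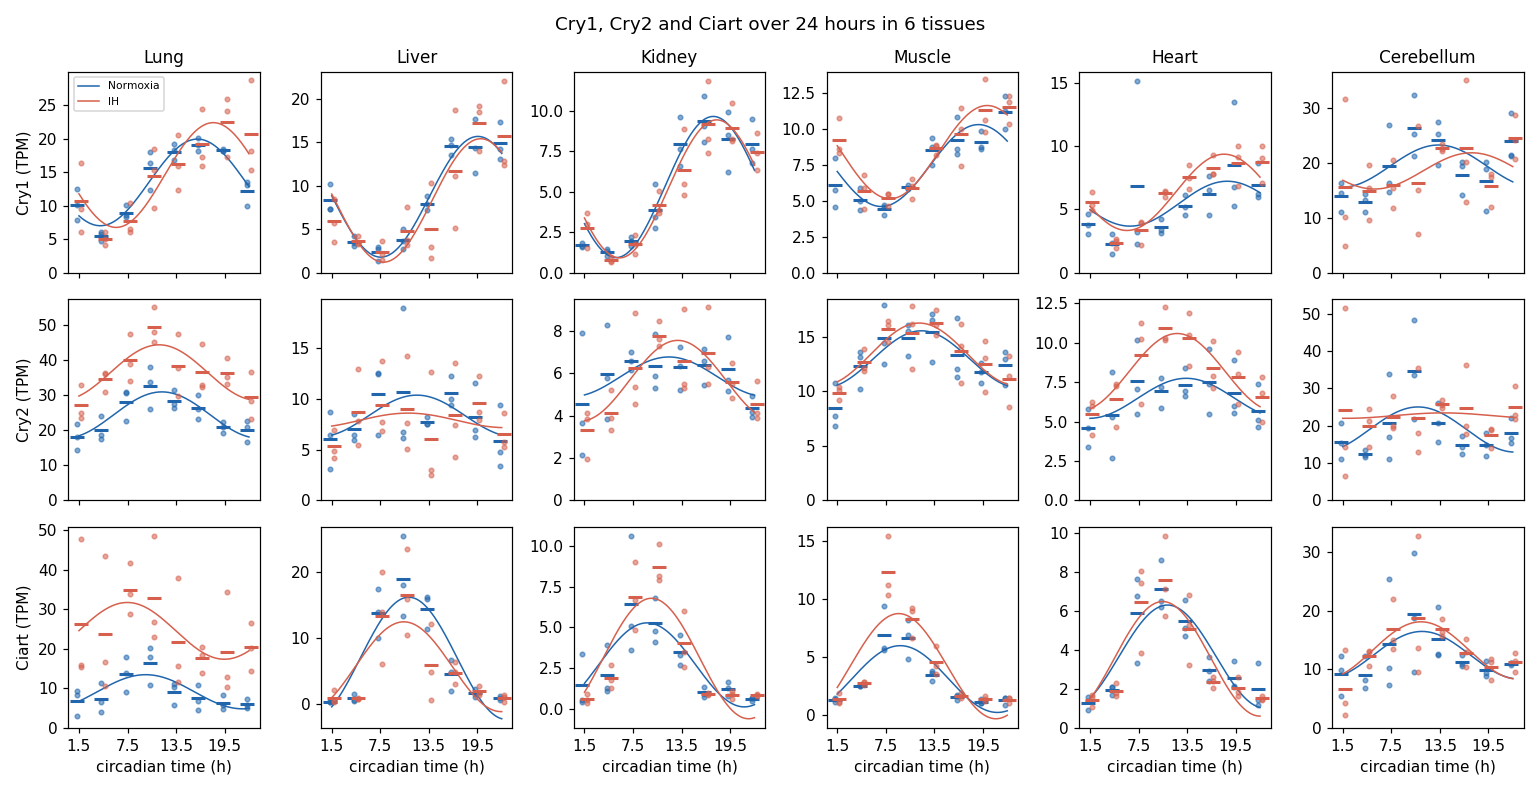
TPM of Cry1, Cry2 and Ciart (rows) against circadian time in hours in 6 tissues (columns), with normoxia in blue and IH in red. Points are single libraries, short bars are means of 3 libraries and lines are 24-hour cosine fits. Ciart peaks at 7:30 or 10:30 in every panel, Cry1 in the late part of the day outside the cerebellum, and the red Ciart points in the lung lie above the blue ones at all 8 time points by their means.

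By their fitted peaks the genes followed the order Ciart, Cry2, Cry1 in the 5 tissues other than the cerebellum. This includes sets where Cry2 did not pass the rhythm test, and the normoxic heart, where Cry1 did not pass either. The acrophase, the time of the cosine peak, of Ciart in normoxia was at 9.75 ± 0.899 h in lung, 11.02 ± 0.45 h in liver, 9.24 ± 0.729 h in kidney, 9.28 ± 0.51 h in muscle and 11.1 ± 0.549 h in heart (± SE). That of Cry1 was at 16.1 ± 0.313 h in lung, 19.6 ± 0.261 h in liver, 17.4 ± 0.352 h in kidney, 18.9 ± 0.522 h in muscle and 18.4 ± 1.96 h in heart. Cry1 thus followed Ciart by 6.38 h in lung (95% interval 4.41 to 8.36), 8.54 h in liver (7.40 to 9.68), 8.17 h in kidney (6.45 to 9.90), 9.66 h in muscle (8.11 to 11.2) and 7.37 h in heart (2.93 to 11.8). The interval of each of these gaps lies above 0. The normoxic heart fit of Cry1 holds the least similar heart library, and the gap without it was not computed. Cry2 followed Ciart by 2.61 h in the muscle (0.479 to 4.75), while in the lung (2.00 h, -0.393 to 4.39), the liver, the kidney and the heart the interval included 0. In the cerebellum, where none of the 3 passed the rhythm test, Cry1 and Ciart peaked at 13.3 ± 1.59 h and 11.3 ± 1.41 h and their gap of 2.05 h (-0.744 to 4.85) included 0.

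After IH the fitted peaks had the same order in these tissues, but the place of Cry2 was not settled in all. Cry2 followed Ciart by 0.533 h in liver (-10.6 to 11.7) and 3.92 h in lung (-0.179 to 8.03), while in kidney, muscle and heart the interval lay above 0. In the liver, where Cry2 did not pass the rhythm test, the gap from Cry2 to Cry1 of 8.96 h also had an interval that included 0 (-3.56 to 21.5). The gap from Ciart to Cry1 was 10.6 h in lung (7.22 to 14.03), 9.49 h in liver (7.08 to 11.9), 8.06 h in kidney (6.66 to 9.47), 10.9 h in muscle (9.40 to 12.4) and 7.59 h in heart (5.90 to 9.28). The wider interval in the lung goes with a Ciart acrophase of 7.47 ± 1.78 h from a fit that did not pass the rhythm test.

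**Figure D3:**
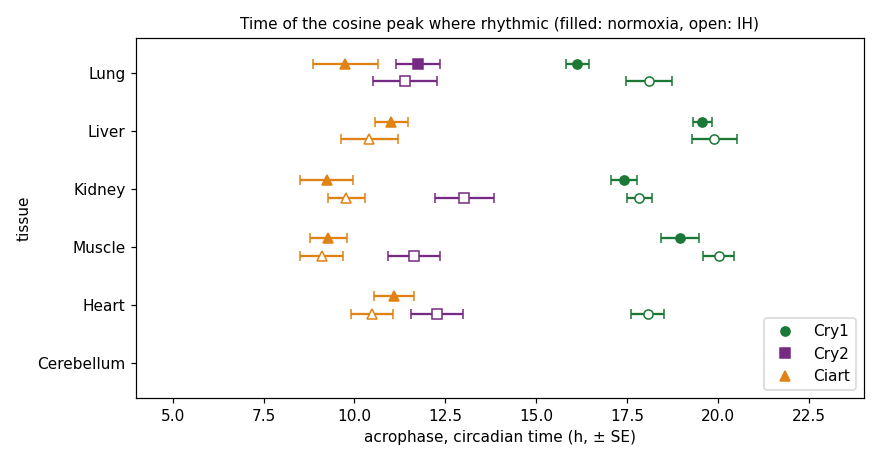
Acrophase in hours of circadian time (± SE) for each tissue where the gene was rhythmic, with filled symbols for normoxia and open symbols for IH. Ciart lies between 9.10 and 11.1 h, Cry2 between 11.4 and 13.0 h and Cry1 between 16.1 and 20.0 h, and the cerebellum has no point because no gene passed there.

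The genes whose daily profile was most like that of each gene were found over the 48 time-point means of the 6 normoxic tissues, centred within tissue, among 9752 genes whose mean reached 1 TPM in all 6. These correlations are descriptions, since time points and tissues share mice and libraries. Genes of high likeness to Cry1 included Abhd8 (r = 0.827) and H3c14 (0.818). Cry2 was most like Stk35, a protein kinase (r = 0.891), followed by Tef, a PAR bZIP transcription factor under clock control (0.873), and Fam76a (0.862). Ciart was most like Coq10b (r = 0.917), which serves coenzyme Q in mitochondria, followed by Pcsk4 (0.873) and Slc5a6, a vitamin transporter (0.864). Among themselves, Cry2 and Ciart had r = 0.661, Cry1 and Ciart -0.338 and Cry1 and Cry2 0.0691.

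IH was followed by more Ciart and more Cry2 RNA in the lung. In the other 5 tissues no change passed the main test, which had treatment as its only term. That model leaves the daily cycle of a gene in the error. With time point as a further term, Cry2 in the heart and a lower Cry1 in the lung also passed, as given below. Mean 24-hour expression was compared with limma on log2(scaled TPM + 0.5), adjusted by the Benjamini-Hochberg method over all genes tested in a tissue, and 2 of the 18 pairs of gene and tissue reached an adjusted p of at most 0.05. The share of all genes that did so was 70.4% in lung, 24.2% in liver, 19.8% in kidney, 10.4% in muscle, 45.2% in heart and 15% in cerebellum. With a change of at least 1.5-fold added, as the study required, it was 13.5% (2078 of 15426 genes) in lung, 3.65% in liver, 0.783% in kidney, 0.374% in muscle, 2.95% in heart and 2.64% in cerebellum, and 1 pair, Ciart in lung, remained. In the lung most genes passed the adjusted p alone, so that passing it there says little about Cry2 or Ciart in particular.

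Ciart in the lung was at 2.97 TPM in the lowest, 8.42 in the median and 20.3 in the highest of the normoxia libraries, and at 10.2, 20.3 and 48.6 TPM after IH. The ranges overlap between 10.2 and 20.3 TPM, and the IH mean was the higher at 8 of 8 time points. The fitted log2 change was 1.07 ± 0.19 (SE, limma adjusted p = 2.79e-06). The IH libraries of the same time point were far apart. At 1:30 they read 15.9, 47.8 and 15.5 TPM, at 4:30 43.5, 16.7 and 10.7 TPM and at 13:30 37.9, 11.7 and 15.6 TPM, whereas the normoxia libraries at 13:30 read 5.76, 11.2 and 10.3 TPM. The reading of 47.8 TPM is from the lung library least like the others, and without it the log2 change was 1.04 ± 0.19. The SD over all IH libraries was 12.2 TPM against 4.59 TPM in normoxia.

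The rise of Ciart was uneven between the libraries of different replicate numbers. Among the 8 libraries of each number, the mean went from 6.91 to 30.6 TPM in replicate 1 (log2 change 1.85 ± 0.32, limma adjusted p = 8.58e-05), from 10.2 to 26.5 TPM in replicate 2 (0.99 ± 0.30, adjusted p = 0.0109) and from 10.3 to 16.5 TPM in replicate 3 (0.35 ± 0.22, adjusted p = 0.183). The number of genes above 0 moved alongside. It was 26099, 26123 and 24143 on average in the IH lung libraries of replicates 1, 2 and 3, and 22260, 22916 and 22904 in normoxia. With this number as a further term of the model the change of Ciart was 0.10 ± 0.24 (adjusted p = 0.764). Treatment and number of genes detected go together in the lung, and their parts in the change of Ciart cannot be told apart.

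**Figure D4:**
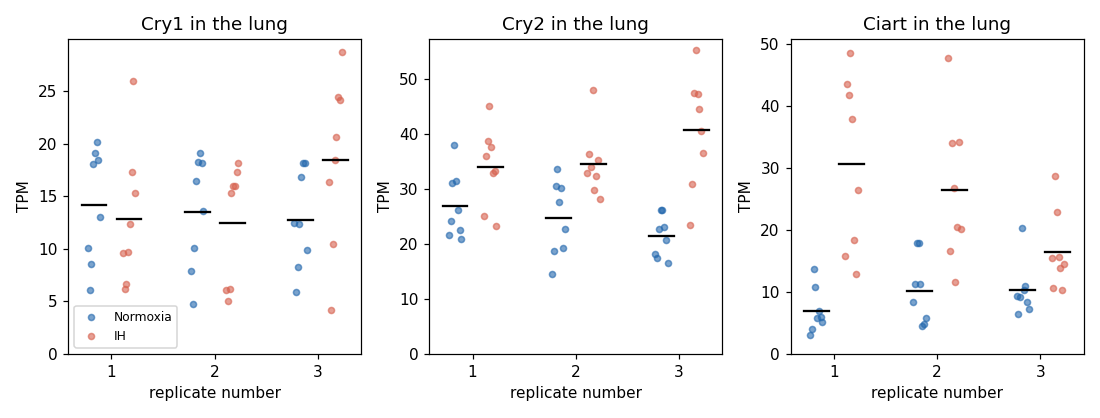
TPM of Cry1, Cry2 and Ciart in the lung for the 8 libraries of each replicate number, normoxia in blue and IH in red, with the mean as a black line. The Ciart means differ most in replicate 1 (6.91 and 30.6 TPM) and least in replicate 3 (10.3 and 16.5 TPM), and the Cry2 means differ most in replicate 3 (21.4 and 40.8 TPM).

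Cry2 in the lung was at 14.5 TPM in the lowest, 22.9 in the median and 37.9 in the highest normoxia library, and at 23.3, 35.7 and 55.3 TPM after IH. The groups overlap, and the IH mean was the higher at 8 of 8 time points. The fitted log2 change was 0.28 ± 0.09 (limma adjusted p = 0.00612), below the 1.5-fold limit, and 0.58 ± 0.09 with TPM as deposited (adjusted p = 4.83e-07). The scale matters because the median log2 change over all genes in the lung was -0.08 after scaling and 0.21 as deposited. In TPM as deposited the means went from 27.0 to 34.0 in replicate 1, from 24.6 to 34.6 in replicate 2 and from 21.4 to 40.8 in replicate 3. On the scaled log2 values the change was 0.11 ± 0.15, 0.12 ± 0.15 and 0.57 ± 0.15 in the same order, and without replicate 3 it was 0.13 ± 0.11 (adjusted p = 0.274). When the model also held the number of genes detected, the change was 0.46 ± 0.14 (adjusted p = 0.00517). The change of Ciart was largest in replicate 1 and that of Cry2 in replicate 3.

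Cry1 in the lung did not pass. It ran from 4.75 to 20.1 TPM around a median of 13.3 in normoxia and from 4.13 to 28.7 TPM around 15.6 after IH, and its IH mean was the higher at 4 of 8 time points. Its log2 change was -0.25 ± 0.19 (limma adjusted p = 0.236) and turned to 0.04 with TPM as deposited. With time point as a further term, the same change of -0.25 had an SE of 0.09 and an adjusted p of 0.0157.

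In the other tissues the log2 changes of Cry1 ran from -0.12 (cerebellum) to 0.15 (heart), and those of Ciart between -0.18 in the heart and 0.17 in the muscle. The smallest adjusted p among them was 0.455. In the muscle the Ciart mean after IH was the higher at 8 of 8 time points, and at 7:30 the libraries read 11.2, 10.3 and 15.4 TPM against 5.78, 5.58 and 9.39 TPM in normoxia. There is no overlap at this time point, which has the widest gap of the 8 and was named after seeing the values. How many of all genes separate there was not counted. Over 24 hours the change was 0.17 ± 0.28, with the daily cycle in its SE. Cry2 came closest to a call in the cerebellum (0.26 ± 0.10, limma adjusted p = 0.071) and the heart (0.19 ± 0.10, adjusted p = 0.109). In the heart Cry2 was at 2.69, 6.31 and 10.2 TPM in the lowest, median and highest normoxia library and at 4.18, 7.88 and 12.3 TPM after IH, with the IH mean higher at 8 of 8 time points, and it passed with time point as a further term (adjusted p = 0.0171) and with TPM as deposited (0.31 ± 0.12, adjusted p = 0.0264). Fewer genes were detected in the heart after IH, and with that number in the model the change of Cry2 was 0.07 ± 0.18 (adjusted p = 0.847). In the cerebellum the Cry2 libraries after IH at 1:30 read 51.6, 14.3 and 6.56 TPM, the last from the library least like the others, and without that library the change was 0.29 ± 0.10 (adjusted p = 0.0271). It was -0.13 ± 0.24 in replicate 3 alone and 0.45 ± 0.11 without replicate 3 (adjusted p = 0.00161). In the liver the 3 changes lay between -0.05 and 0.01. There the IH libraries at 13:30 read 4.85, 0.647 and 12.1 TPM for Ciart, the lowest from the liver library least like the others, and without it the changes were -0.01 for Cry1, 0.04 for Cry2 and -0.0039 for Ciart. Without the least similar heart library the change of Cry1 in the heart was 0.19 ± 0.16 (adjusted p = 0.337).

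**Figure D5:**
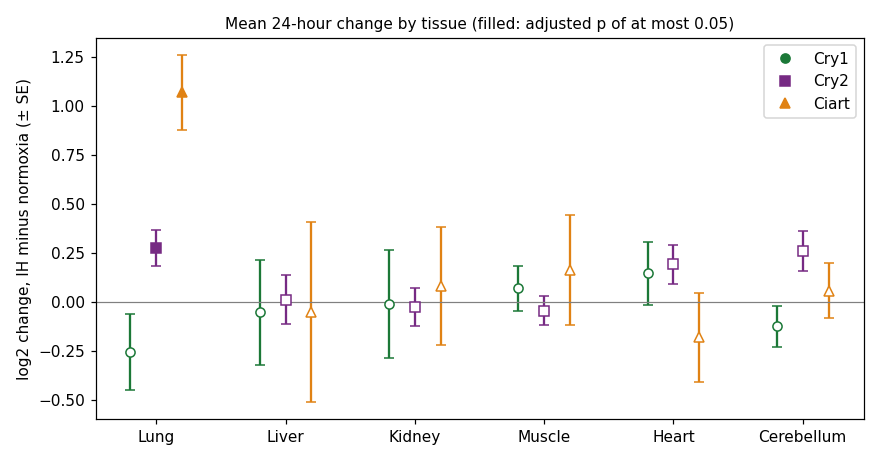
Change in mean 24-hour expression, IH minus normoxia, in log2 units (± SE, 24 libraries per treatment) for each tissue, with filled symbols where the limma adjusted p was at most 0.05. Ciart at 1.07 and Cry2 at 0.28 in the lung are filled, and the SE of Ciart in the liver, 0.46, is the widest.

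The cosine fits were made on TPM as deposited. The MESOR, the mean level of the fitted cosine, was higher after IH by 15.4 TPM for Ciart in lung (95% interval 10.4 to 20.4, q = 1.04e-06), by 12.1 TPM for Cry2 in lung (9.15 to 15.1, q = 4.42e-09) and by 1.66 TPM for Cry2 in heart (0.718 to 2.61, q = 0.00291). Over the genes rhythmic in at least 1 treatment, the share with a MESOR difference was 64.6% in lung, 29% in liver, 12.3% in kidney, 10.5% in muscle, 50.8% in heart and 2.56% in cerebellum. For Cry1 in the lung the difference was 1.10 TPM (-0.899 to 3.10), and -1.77 TPM with scaled TPM. Without the heart library least like the others, the MESOR of Cry1 in the heart was also higher, by 1.44 TPM (0.555 to 2.32, q = 0.00522). The heart difference of Cry2 was 1.26 TPM without replicate 3, with an interval of -0.0858 to 2.61.

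No difference in amplitude or acrophase between treatments passed for the 3 genes. Few genes passed at all, with amplitude differences in 0.428% of the lung family and 0% in the other 5 tissues, and acrophase differences of at least 4 h in 0.0389% in lung, 0.344% in muscle, 0.285% in cerebellum and 0% elsewhere. The intervals leave room for changes of size. In the lung the amplitude of Ciart was 4.32 ± 1.02 TPM in normoxia and 7.18 ± 3.35 TPM after IH, a difference of 2.86 TPM (-4.21 to 9.92), so that a lower amplitude after IH is not shown. In the muscle the amplitude of Ciart was higher by 1.66 TPM (0.0523 to 3.27, p = 0.0433, q = 0.346). The acrophase of Cry1 in the lung was 1.96 h later after IH (0.429 to 3.50, p = 0.0134, q = 0.478), with a peak of the time-point means at 16:30 in normoxia and 19:30 after IH. In the liver, kidney and muscle the Cry1 acrophase was later by 0.34 h (-1.02 to 1.70), 0.42 h (-0.57 to 1.42) and 1.08 h (-0.269 to 2.43), intervals that exclude shifts of 3 h or more.

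The response in the lung was set against that in each other tissue as an interaction term. Ciart rose more in lung than in heart by 1.19 ± 0.31 on the log2 scale (limma adjusted p = 4.33e-04), than in cerebellum by 0.93 ± 0.24 (adjusted p = 5.88e-04), than in kidney by 0.91 ± 0.38 (adjusted p = 0.0274) and than in muscle by 0.84 ± 0.35 (adjusted p = 0.0336). Against the liver the difference was 0.97 ± 0.54 (adjusted p = 0.114). For Cry2 the difference from the muscle passed (0.27 ± 0.12, adjusted p = 0.0414) and those from the other 4 tissues did not, and for Cry1 none passed. With time point as a further term, Cry1 passed against the heart (-0.45, adjusted p = 6.94e-04), the muscle (-0.36, adjusted p = 0.00225) and the kidney (-0.30, adjusted p = 0.0305), Cry2 also against the kidney (0.24, adjusted p = 0.0109) and Ciart also against the liver (adjusted p = 5.76e-04). With TPM as deposited, Cry2 passed against liver (0.68), kidney (0.64) and muscle (0.53), and Ciart against all 5 tissues. Of all genes tested, 56.2% differed between lung and liver, 64.4% between lung and kidney, 58.9% between lung and muscle, 67% between lung and heart and 53.4% between lung and cerebellum. The 5 of 15 comparisons for these genes are below that background, in a model that leaves the daily cycle in the error. The counts of all genes with time point as a further term are given further on.

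The other parts of the clock give the setting. Of 16 further clock genes, 4 rose in the lung and 0 fell, a share below the 70.4% of all genes that passed there, and the median log2 change was 0.11 against -0.08 for all genes tested. They were Per2 (0.74 ± 0.29, limma adjusted p = 0.0201) and Per3 (0.88 ± 0.27, adjusted p = 0.00346), which encode partners of the CRY proteins, Tef (0.62 ± 0.22), and Rora (0.42 ± 0.05), a nuclear receptor that activates Arntl. Arntl itself was at -0.17 ± 0.35 (adjusted p = 0.678) and Nr1d1, which encodes REV-ERBα, at -0.45 ± 0.44 (adjusted p = 0.362). The daily cycle of such genes is left in the error of this model, with an SE of 0.35 for Arntl and 0.44 for Nr1d1 against 0.05 for Rora. The shares of clock genes that passed are therefore not like for like with those of all genes, and do not show a weaker response. In the liver, kidney and cerebellum none of the clock genes tested (15, 16 and 16) passed, in the muscle 1 of 16 rose (Rora, against 10.4% of all genes) and in the heart 2 of 16 rose (Rora and Bhlhe40, against 45.2%). In the lung, 14 of the 16 were rhythmic in each treatment. The amplitude differed for 5 of them there, Arntl among them, each higher after IH. For Arntl it went from 8.01 ± 0.826 to 13.9 ± 1.05 TPM (q = 0.0273). None of these 5 differences passed on scaled TPM, where that of Arntl was 2.91 TPM (q = 0.473). The 3 repressors had no such call on either scale, and whether they differ from those 5 was not tested.

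A list of 8 regulators of cryptochrome and PER stability was also counted. Fbxl21, which encodes an F-box protein that acts on CRY proteins, was too low to be tested in the lung, muscle and heart, and was at -0.21 ± 0.09 in the cerebellum (adjusted p = 0.101). In the lung 3 of the 7 tested rose, Csnk1d and Csnk1e among them, and 1 fell (Fbxw11), and the median log2 change was 0.16. In the liver 2 of 8 rose and 1 fell (24.2% of all genes passed), in kidney 0 of 8 rose and 3 fell (19.8%), in muscle 1 of 7 rose (10.4%), in heart 3 of 7 rose (45.2%) and in cerebellum 2 of 8 rose (15%), while in lung 70.4% of all genes passed. The casein kinase gene Csnk1d, whose product phosphorylates PER proteins, rose by 0.24 ± 0.04 in the lung and 0.33 ± 0.09 in the cerebellum, and in the kidney it changed by -0.096 ± 0.03 (adjusted p = 0.0424).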

How the data were processed

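The authors made strand-specific poly(A) libraries (NEBNext Ultra II Directional), sequenced them, checked reads with FastQC 0.11.3, quantified them with Kallisto against Ensembl release 102 (mm10 is the build in the submitters' processing notes) and deposited TPM per gene. They ran DESeq2 on estimated counts, which are not used here, and MetaCycle and CircaCompare on TPM. Opposite-strand overlaps of Cry2 and Ciart could share reads if Kallisto was run without its strand option, which is not given in the sources used here.

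Each library was scaled by its median ratio to the geometric mean over libraries (median of ratios), taken as log2 with a pseudocount of 0.5, filtered at a mean of 1 TPM per tissue and tested with limma 3.58.1 (R 4.3.3, trended prior), with treatment as the only term. JTK, Lomb-Scargle and cosine tests were re-implemented (Python 3.11.15, numpy 2.4.6, scipy 1.17.1, pandas 2.3.3) at a period of 24 h for genes that reached 1 TPM in some library. The combination of JTK and Lomb-Scargle by the Fisher method, which takes them as independent, was chosen here. Figures used matplotlib 3.10.9. The limma fit with treatment alone (lung, cerebellum) and the rhythm and cosine fits (lung, heart) were tested on simulated data. The data simulated for limma held no daily cycle. The fits with further terms, the interactions and the gaps between acrophases were not simulated.

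The 3 genes and the gene lists were chosen with earlier results of these data known. From the lists, values are printed for Arntl, Per2, Nr1d1 and Fbxl21 and for up to 4 others that passed a test, and for each of the 3 genes the named genes are from the 3 most similar. Some results that this rule would name are not reported here. The organs of a time point may come from the same mice, so tissues are not independent.

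Alternatives were other pseudocounts, filters and scaling, further terms, a replicate block and leaving out libraries. Leaving out the least similar library in the rhythm and cosine fits was added after seeing the data. No genome sequence beyond the promoter windows and no protein sequence was used.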

Additional observations from a re-analysis of the deposited data

Results flagged for a closer look

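For Ciart and Cry2 the response to IH in the lung differed from that in another tissue by a test of the difference itself, which 53.4% to 67% of all genes also passed. The 5 of 15 calls are below that background in the main model, but not with time point as a further term, as given below. For Ciart the log2 change in the lung exceeded that in the heart by 1.19, in the cerebellum by 0.93, in the kidney by 0.91 and in the muscle by 0.84. For Cry2 it exceeded that in the muscle by 0.27. Without replicate 1 the 4 differences of Ciart were 0.73 (heart, limma adjusted p = 0.07), 0.69 (cerebellum, adjusted p = 0.0336), 0.46 (kidney, adjusted p = 0.388) and 0.48 (muscle, adjusted p = 0.355), so that the cerebellum alone still passed. The difference of Cry2 from the muscle did not pass without any one of the replicates (adjusted p = 0.0732, 0.0872 and 0.25 without replicate 1, 2 and 3). Libraries of 2 tissues may come from the same mice, and were taken as independent in these fits.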

How the results depend on the processing

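Of the 18 changes in mean expression 2 passed. With time point as a further term 4 passed, with a replicate block 4 (lung Cry1 and heart Cry2 added), with TPM as deposited 3 (heart Cry2 added, 0.31), without the least similar libraries 3 (cerebellum Cry2 added, 0.29), with the number of genes detected 1, and in replicate 1 alone and replicate 3 alone 1 each. In the mean changes a block held the libraries of the same time point and replicate number, so it also takes up the time of day. The calls it added are those that time point added. In the interactions a block held the libraries of the same treatment, time point and replicate number. Same-numbered libraries did not vary together in every pair (correlations above 0.1 in 5 of 24 pairs in the lung and 16 of 24 in the liver), so the pairing within a time point rests on a shared number only. Of the 15 interactions 5 passed, against 8 with TPM as deposited, 10 with time point, 8 with the block (Cry1 against heart, adjusted p = 0.00111, and muscle, 0.0268, and Cry2 against kidney, 0.00362, added) and 1 to 7 without a replicate. With time point, 6259 of 10795 genes passed against liver, 8025 of 12214 against kidney, 7445 of 12348 against muscle, 8420 of 12445 against heart and 7254 of 13178 against cerebellum. With TPM as deposited these were 5572, 7114, 5582, 6318 and 5624 of the same genes. The 10 and the 8 of 15 calls are thus near the background of their models. Rhythm calls were 23, with 13 by the rank test alone and 11 to 15 without a replicate. Neighbouring tissues differed in 11 of 15 pairs, in 6 with scaled TPM and in 8 by the median.

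Ciart in the lung missed the threshold with the number of genes detected (0.10) and in replicate 3 alone (0.35), and Cry2 in replicates 1 and 2 alone (0.11 and 0.12). The cause was not tested. Without a replicate, the log2 change of Cry2 in the lung ran from 0.13 to 0.35, and the lung's excess from 0.73 to 1.61 over the heart, 0.46 to 1.26 over the kidney and 0.48 to 1.22 over the muscle for Ciart and from 0.18 to 0.32 over the muscle for Cry2. The MESOR differences ran from 8.52 to 14.7 TPM (lung Cry2), 11.2 to 20.0 (lung Ciart) and 1.22 to 2.50 (heart Cry2), with 0 to 2 calls, in part because fewer libraries left genes outside the rhythmic family.

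Values that did not pass in the main fit changed sign as follows. With TPM as deposited, Cry1 in the lung was 0.036, Cry2 in the liver -0.10 and in the muscle 0.052, and the lung's excess was 0.20, 0.074 and 0.16 for Cry1 over liver, kidney and cerebellum and 0.32 for Cry2 over the cerebellum. With genes detected, Cry1 was 0.40 in the lung and 0.0050 in the kidney, Cry2 -0.026 in the liver and Ciart 0.20 in the heart. In replicate 1 alone, Cry1 was 0.12 and Ciart -0.043 in the kidney. In replicate 2 alone, Cry2 was -0.16 in the liver and -0.0072 in the heart. In replicate 3 alone, Cry1 was 0.11 in lung, 0.29 in liver, 0.037 in kidney and -0.037 in heart, Cry2 0.22 in the kidney, 0.10 in the muscle and -0.13 in the cerebellum, and Ciart 0.30 in liver and -0.35 in cerebellum. Without a replicate, Cry1 ran from -0.23 to 0.045 in the liver and -0.072 to 0.078 in the kidney, Cry2 from -0.068 to 0.10 in the liver and -0.15 to 0.052 in the kidney, Ciart from -0.23 to 0.10 in the liver and -0.086 to 0.26 in the cerebellum, and the lung's excess of Cry2 from -0.084 to 0.15 over the heart and -0.44 to 0.14 over the cerebellum. The value of -0.44, found without replicate 3, passed (limma adjusted p = 0.0115), with Cry2 rising less in the lung than in the cerebellum. The MESOR difference of Cry1 in the lung was -1.77 TPM with scaled TPM and -1.18 to 2.32 TPM without a replicate. Other pseudocounts and filters changed no call. The study gives a median number of mapped reads over its samples, but the depth of each single library is unknown. Its part in low values could therefore not be judged.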
